A study of Homo sapiens with 17 samples.

Results

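TMEM genes encode transmembrane proteins that were numbered in order of description rather than grouped by ancestry, so the shared name covers proteins of unrelated function in nearly every membrane of the cell. Most of their mRNAs are translated by ribosomes at the endoplasmic reticulum, where the protein is threaded into the membrane as it is made. A smaller number encode proteins that are imported into mitochondria after synthesis. Of 174 protein-coding TMEM genes listed, 133 had an average TPM, a length-scaled measure of transcript abundance, of at least 5 in both immunoprecipitations (IPs) and are the members described here, among 9607 protein-coding genes that met the same threshold and 18869 genes in all. The members were thus chosen by their TPM values in both IPs, and those values are given as description only.

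HEK293T cells, a human embryonic kidney line, carried a doxycycline-inducible construct integrated by lentivirus. RPS2-STAMP cells expressed the C-to-U RNA editing enzyme APOBEC1 fused to RPS2, a protein of the small ribosomal subunit, and Control-STAMP cells expressed APOBEC1 alone. All cells were induced for 24 h with doxycycline at 50 ng/mL and crosslinked with 0.1% formaldehyde. RNA was then sequenced from the Input and from IPs of PABPN, the poly(A)-binding protein that coats new poly(A) tails in the nucleus, and PABPC, its cytoplasmic counterpart. RPS2-STAMP cells gave 3 Input, 3 PABPN IP and 3 PABPC IP samples, and Control-STAMP cells 3 Input, 3 PABPN IP and 2 PABPC IP samples, 17 in all. All values thus come from a single parental cell line with a stably integrated construct. Whether the average TPM values include the Control-STAMP samples is not given in the sources used here. The study's text, outside its methods, describes these IPs as made from cytoplasm, a step that the sample labels do not name.

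Normalized EPKM counts edits in RPS2-STAMP cells, scaled to transcript length in kb and to the mapped reads of the library as RPKM is, after subtraction of the control, and serves as a measure of contact between an mRNA and ribosomes. It is not divided by TPM, so the EPKM differences between fractions below are not corrected for differences in transcript abundance. A value of 0 means that no editing above the control was listed, and the control's own values are not analysed here. The control had 2 samples for the PABPC IP against 3 for the PABPN IP and 3 for the Input. The part of this imbalance in the values was not tested. For each gene the table holds 1 EPKM and 1 average TPM per fraction, pooled over samples. No spread between replicates, depth per value or test could therefore be had, and each difference below lacks a replicate check. "Higher" and "lower" refer to these pooled values.

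The threshold left out 41 TMEM genes. In 24 of them both IPs were under the threshold, in 13 only the PABPC IP was, in 2 only the PABPN IP was, and for 2 (TMEM42 and TMEM80) no TPM was listed. Just inside the threshold lay TMEM37, with a TPM of 5.13 in the PABPN IP, and TMEM131L, with 5.32 in the PABPC IP. Just outside lay TMEM182, with 4.75 in the PABPN IP, and TMEM161B, with 4.72 in the PABPC IP. TMEM161B reached 16.1 in the PABPN IP and TMEM131L 19.6. The same split by reason was not made for protein-coding genes in general, so these counts are a description.

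Editing of TMEM mRNAs was somewhat higher with PABPC than with PABPN, as it was for protein-coding genes in general. The members' median EPKM was 0.0338 in the Input, 0.0323 in the PABPN IP and 0.0423 in the PABPC IP. Over all 9607 protein-coding genes the medians were 0.0273, 0.0334 and 0.0501. The ratio of the PABPC median to the PABPN median was thus 1.31 for the members and 1.499 for all protein-coding genes. EPKM was higher in the PABPC IP for 78 members (58.6%, against 56.4% of all protein-coding genes), higher in the PABPN IP for 47 (35.3% against 37.4%) and equal for 8. These shares lie near the background.

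Counts of larger differences depended on the pseudocount. On the log2(EPKM + 0.01) scale, 42 members (31.6%) were at least 2-fold higher with PABPC, against 36.3% of protein-coding genes, and 35 (26.3%) were at least 2-fold higher with PABPN, against 21.1%. With 0.1 in place of 0.01 the counts were 14 (10.5%, against 9% of protein-coding genes) and 2 (1.504% against 3.71%), so the nearly even split of the members did not hold at the larger pseudocount. Of the 42, 23 (54.8%, against 53.1% of such protein-coding genes) were listed at 0 with PABPN, and of the 35, 17 (48.6% against 48.9%) were listed at 0 with PABPC. No fold can be given for these, and their shares lie near the background.

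Editing above the control was listed for 100 of 133 members in the Input (75.2%, Wilson 95% interval 67.2 to 81.8), for 97 in the PABPN IP (72.9%, 64.8 to 79.8) and for 106 in the PABPC IP (79.7%, 72.1 to 85.7). The intervals cover the counting of genes only, and genes are not replicates. The corresponding shares of all protein-coding genes were 78.1%, 72.9% and 82.6%. A total of 64 members (48.1%) were above 0 in all 3 fractions, 46 (34.6%) in 2, 19 (14.3%) in 1 and 4 (3.01%) in none. Over all protein-coding genes these shares were 50.5%, 34.7%, 12.7% and 2.07%, near those of the members. The 4 members at 0 throughout, named after their values were seen, were TMEM128, TMEM167B, TMEM187 and TMEM234. Solute carriers, another large group of multi-pass membrane proteins, had 155 genes past the threshold, with median EPKM of 0.0242 in the Input, 0.0365 in the PABPN IP and 0.0494 in the PABPC IP. Of these, 86 (55.5%) were higher with PABPC and 64 (41.3%) with PABPN.

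**Figure D1:**
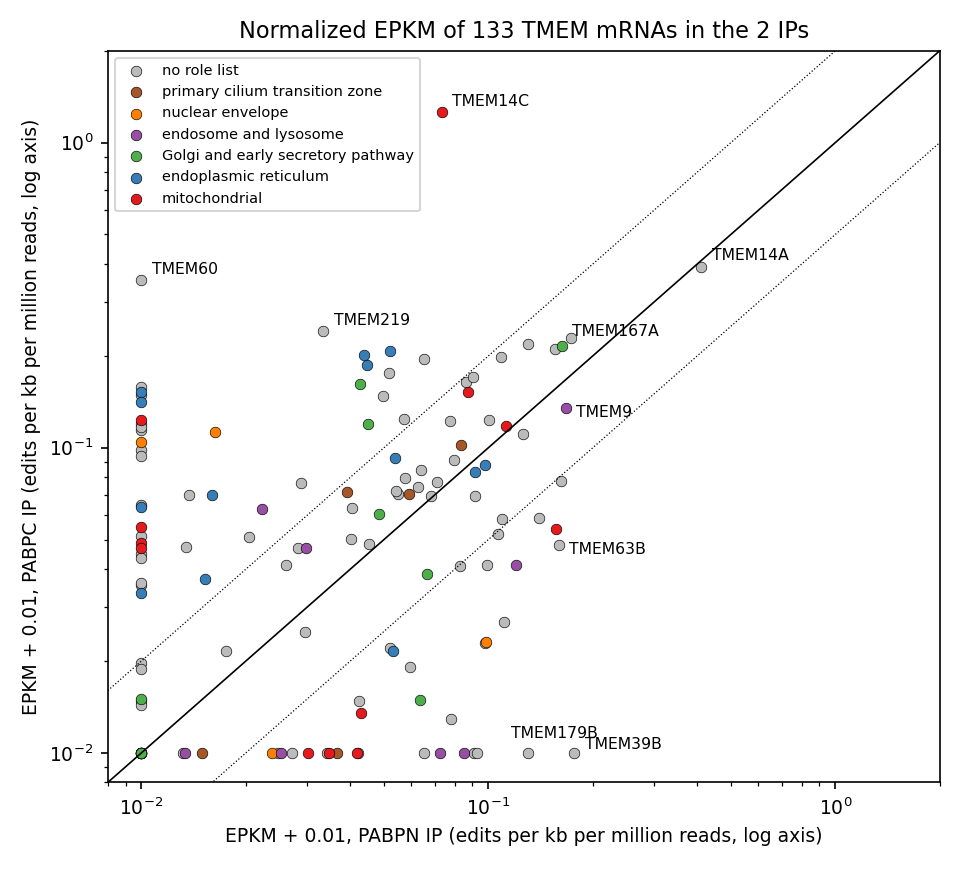
Normalized EPKM plus 0.01 of each of the 133 members in the PABPN IP (x axis) and the PABPC IP (y axis), both on log axes, coloured by role list; the solid line marks equality and the dotted lines a 2-fold difference. TMEM14C (1.25 in the PABPC IP) lies apart from the other members, and points along the lower and left edges are listed at 0 in an IP.

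In EPKM level and in the plain EPKM difference between the IPs, TMEM14C stood furthest from the other members. It encodes a small inner-membrane protein of mitochondria that is needed for the import of a porphyrin intermediate of heme synthesis. Its EPKM was listed at 0 in the Input, 0.0635 in the PABPN IP and 1.25 in the PABPC IP. The PABPC value was the highest of the members, ahead of TMEM14A at 0.382, and ranked 7 among 9607 protein-coding genes. Its difference between the IPs, 1.18, ranked 2 among them. On the log2(EPKM + 0.01) scale the difference was 4.09, behind TMEM60 (5.14) and TMEM39B (-4.14) in size, each of which was listed at 0 in an IP. TMEM14C was chosen as an outlier, so these ranks are a description.

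TMEM14C was among the more abundant members, but not the most abundant in any fraction. Its TPM was 100.0 in the Input, 178 in the PABPN IP and 301 in the PABPC IP. The members' medians were 14.3, 35.7 and 32.4, and their highest values 140, 287 and 445. The TPM ratio of TMEM14C between the IPs did not set it apart from its paralogues. After centring on the median of protein-coding genes, its log2 TPM ratio of PABPC IP over PABPN IP was 0.95, against 0.97 for TMEM14B and 1.18 for TMEM14A. The 3 paralogues therefore lay within 0.24 of each other in this ratio, and their EPKM did not follow it.

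TMEM14A and TMEM14B showed other editing patterns. TMEM14A had EPKM of 0.446 in the Input, 0.400 in the PABPN IP and 0.382 in the PABPC IP, the highest of all members in the Input and in the PABPN IP. TMEM14B had 0.0915, 0.0992 and 0.0486. TMEM14A was thus high in every fraction, TMEM14B lower than TMEM14A in every fraction, and TMEM14C above both in the PABPC IP alone.

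**Figure D2:**
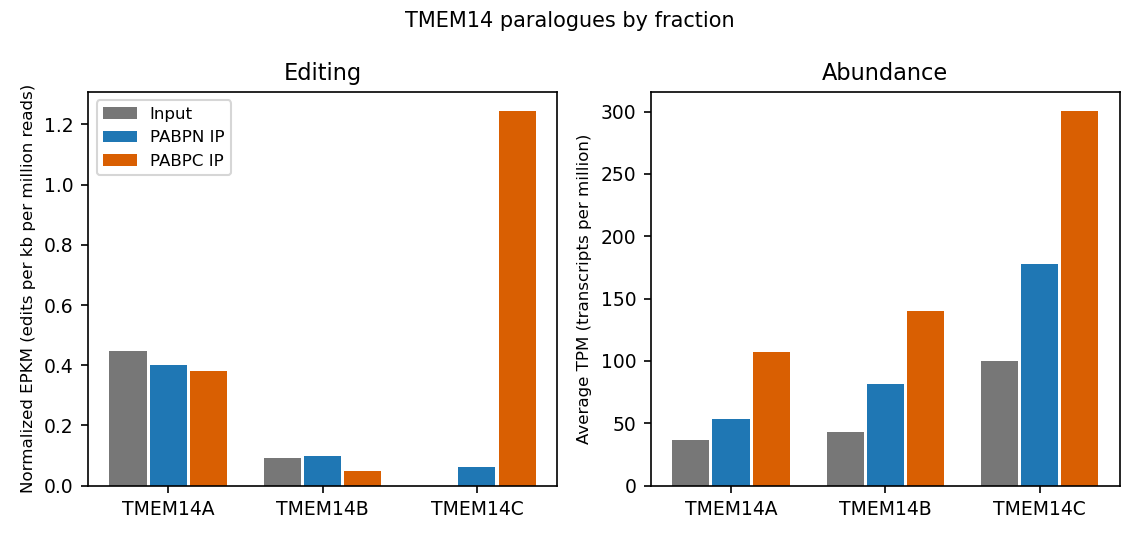
Bars give the pooled value of each TMEM14 paralogue in the Input, PABPN IP and PABPC IP: normalized EPKM on the left and average TPM on the right. All 3 genes have their highest TPM in the PABPC IP, while EPKM reaches 1.25 in the PABPC IP for TMEM14C only; there are no error bars because 1 pooled value exists per gene and fraction.

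TMEM14B and TMEM14C have similar coding sequences, which may bear on how reads were divided between them. On hg38, TMEM14C lies on the plus strand at chr6:10722915-10731129 and TMEM14B on the plus strand at chr6:10747759-10852753 (GENCODE release 44). Their canonical coding sequences were identical at 301 of 336 aligned bases (89.6%), and the translated proteins at 75.9% of aligned residues, with a longest shared run of 37 bases. TMEM14A, at chr6:52671113-52686588, shared 54.5% of aligned residues with TMEM14C and no run over 11 bases. The most alike coding stretch of the length of 1 read, 100 bases, differed between TMEM14B and TMEM14C at 3 positions, shown in capitals. It covers bases 69 to 168 of the TMEM14B and 66 to 165 of the TMEM14C coding sequence, counted from the start codon.
TMEM14B: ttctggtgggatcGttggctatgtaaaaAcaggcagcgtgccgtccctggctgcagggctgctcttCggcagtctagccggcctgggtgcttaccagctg
TMEM14C: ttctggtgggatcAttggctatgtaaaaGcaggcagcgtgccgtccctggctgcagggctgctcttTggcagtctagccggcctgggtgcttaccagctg
Among annotated transcripts, the processed pseudogene TMEM14DP was also alike. In local alignments to the TMEM14C coding sequence, each over 310 bases, it was identical at 91.3% and TMEM14B at 92.3%. Less alike were an unnamed processed pseudogene (82.0% over 322 bases) and the pseudogene TMEM14EP (74.3% over 331 bases). A transcript of another unnamed gene matched at 93.8% over 81 bases only. That gene was listed with an EPKM of 0 in every fraction and no TPM. How reads that fit several copies were treated is not given in the sources used here, so the values of TMEM14B and TMEM14C are uncertain to that extent, and the part of read sharing in them was not tested.

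Beyond TMEM14C, the members with the largest EPKM differences toward PABPC were led by TMEM60, which has a coding sequence of 399 bases. It was listed at 0 in the Input and the PABPN IP, against 0.344 with PABPC. TMEM219, which encodes a receptor of the insulin-like growth factor binding protein IGFBP-3, had 0 in the Input, 0.0234 in the PABPN IP and 0.231 in the PABPC IP. TMEM259 (membralin), an endoplasmic reticulum protein, was also listed at 0 in the Input, with 0.0346 in the PABPN IP and 0.177 in the PABPC IP. For these 3, as for TMEM14C, the PABPC value exceeded an Input value listed at 0. TMEM38B and TMEM97 differed from them, since their Input values were above their PABPC values. TMEM38B, a channel for monovalent cations of the endoplasmic reticulum, had 0.232 in the Input, 0.0337 in the PABPN IP and 0.191 in the PABPC IP. TMEM97, the sigma-2 receptor, had 0.224, 0.0421 and 0.197. TMEM121 and TMEM129 completed the 8, both listed at 0 in the PABPN IP, with PABPC values of 0.149 and 0.143.

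In the other direction, the largest difference was that of TMEM39B, with 0.0988 in the Input, 0.167 in the PABPN IP and 0 in the PABPC IP. TMEM179B followed, with 0.147, 0.120 and 0. TMEM63B, a mechanosensitive channel, had 0.0310, 0.150 and 0.0379. These differences were smaller than the leading ones toward PABPC: 0.167 for TMEM39B against 0.344 for TMEM60. TMEM223, TMEM69, TMEM184B, TMEM145 and TMEM123 made up the rest of the 8. TMEM123 had its highest EPKM in the Input, 0.373, against 0.130 in the PABPN IP and 0.0487 in the PABPC IP. TMEM145 had an EPKM of 0.0830 with PABPN and 0 in the other fractions, and lay close to the TPM threshold, with 5.64 in the PABPC IP.

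High editing in the Input did not go with 1 IP. The 5 members with the highest Input EPKM were TMEM14A, TMEM230 (0.398), TMEM33 (0.375), TMEM123 and TMEM167A (0.336). TMEM230 had 0.163 in the PABPN IP and 0.219 in the PABPC IP, and TMEM167A had 0.153 and 0.205, so both were below their Input values in either IP. TMEM33, a protein of the endoplasmic reticulum, had 0.0439 and 0.0827. The Input was the highest fraction for 45 members (33.8%, against 26.6% of protein-coding genes), the PABPN IP for 36 (27.1% against 28.7%) and the PABPC IP for 48 (36.1% against 42.6%).

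Members were then grouped by the location of their proteins, and the counts of these small lists, without replicates, are a description. The lists were set from general knowledge and are not complete, so the counts depend on which genes were listed. TMEM39A, for example, is in the endoplasmic reticulum list. Its paralogue TMEM39B, with 0.167 in the PABPN IP and 0 in the PABPC IP, is in no list. In the endoplasmic reticulum list, 10 of 13 members were higher with PABPC and 3 with PABPN, beside 56.4% and 37.4% of all protein-coding genes. At least 2-fold differences were counted for 9 toward PABPC and 1 toward PABPN, beside 36.3% and 21.1%. All 13 were above 0 with PABPC and 9 with PABPN, beside 82.6% and 72.9%. Their median EPKM was 0.0856 in the Input, 0.0337 in the PABPN IP and 0.0778 in the PABPC IP. Several encode parts of the machinery that makes membrane proteins. TMEM258, a subunit of the oligosaccharyltransferase, had 0.190 in the Input, 0.00521 in the PABPN IP and 0.0271 in the PABPC IP. TMEM208, of the SND targeting pathway, had 0.150, 0 and 0.132, and TMEM147, a partner of the translocon, 0.104, 0.00600 and 0.0598. In each of these 3 the PABPN value was the lowest and the Input value the highest. The same order held in TMEM33, TMEM38B, TMEM39A and TMEM97, so it was not particular to these 3. It did not hold in the remaining members of the list. TMEM214, TMEM38A and TMEM41B were the 3 members that were lower with PABPC.

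In the endosome and lysosome list, 6 of 8 members were higher with PABPN and 2 with PABPC, beside the same 37.4% and 56.4% of all protein-coding genes. Median EPKM was 0.0424 in the Input, 0.0411 in the PABPN IP and 0.0156 in the PABPC IP, and 3 of the 8 were listed at 0 with PABPC, beside 17.4% of protein-coding genes. Those were TMEM175, a lysosomal ion channel, with 0.0624 in the PABPN IP; TMEM192, often used as a tag to isolate lysosomes, with 0.0753; and TMEM106B, with 0.0153. The paralogues TMEM9 and TMEM9B were above 0 in both IPs, at 0.157 and 0.111 with PABPN and 0.125 and 0.0312 with PABPC. TMEM127 was barely above 0 with PABPC, at 0.00000115. TMEM59 and TMEM63A were the members higher with PABPC.

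Of 12 mitochondrial members, 7 were higher with PABPC and 5 with PABPN, beside 56.4% and 37.4% of protein-coding genes. At least 2-fold differences were counted for 5 in each direction, beside 36.3% and 21.1%, and the median EPKM was 0.0528 in the Input, 0.0283 in the PABPN IP and 0.0413 in the PABPC IP. Next to TMEM14C, TMEM160 had an EPKM of 0 with PABPN and 0.114 with PABPC. TMEM11, which acts in mitochondrial shape, had 0 and 0.0386, and TMEM177, an assembly factor of cytochrome c oxidase, 0 and 0.0452. Among assembly factors of respiratory complex I, TMEM126B had nearly equal values, 0.102 with PABPN and 0.108 with PABPC, while TMEM126A had 0.0202 and 0, and TMEM186 had 0.0330 and 0.00351. For the ATP synthase assembly factors, TMEM70 had 0.0318 with PABPN and 0 with PABPC, and TMEM242 had 0 and 0.0368. Of the remaining mitochondrial members, TMEM223 had 0.146 with PABPN and 0.0440 with PABPC, TMEM143 had 0.0248 and 0, and TMEM65 had 0.0774 and 0.143.

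The other lists were small. Golgi and early secretory members numbered 9 of 10 listed genes, with 5 higher with PABPC, 2 higher with PABPN and 2 equal at 0 in both IPs. As for the other lists, these counts stand beside 56.4% and 37.4% of protein-coding genes higher with PABPC and PABPN. Median EPKM of the Golgi and early secretory list was 0.0514 in the Input, 0.0351 in the PABPN IP and 0.0286 in the PABPC IP. TMEM30A, a subunit of lipid flippases, had 0.0327 with PABPN and 0.151 with PABPC, while TMEM165, a Golgi transporter for manganese and calcium, had 0.0568 and 0.0286. Of 4 nuclear envelope members, 2 were higher in each IP: TMEM201 (0 with PABPN, 0.0945 with PABPC) and TMEM209 (0.00628, 0.103) with PABPC, and TMEM43 (0.0886, 0.0131) and TMEM53 (0.0137, 0) with PABPN. Of 9 genes of the cilium transition zone, 6 were members, and TMEM17, TMEM67 and TMEM80 were not. Among the 6, TMEM216 had 0.0292 with PABPN and 0.0615 with PABPC, TMEM237 0.0489 and 0.0603, and TMEM138 0.0734 and 0.0924, while TMEM107, TMEM218 and TMEM231 were listed at 0 with PABPC, beside 17.4% of protein-coding genes, TMEM218 also with PABPN. The remaining 81 members, with no role list, had medians of 0.0255, 0.0352 and 0.0412 in the Input, PABPN IP and PABPC IP.

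**Figure D3:**
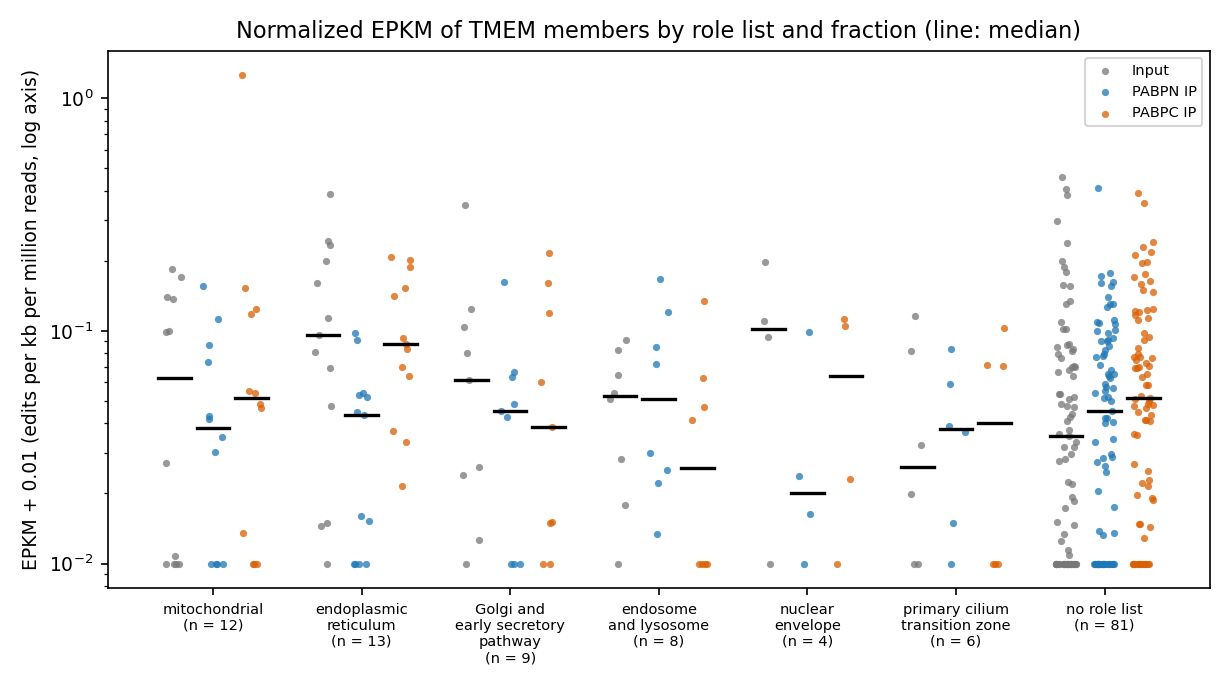
Normalized EPKM plus 0.01 (log axis) of each member by role list and fraction; black lines are medians plus 0.01, and the number of members stands under each list. In the endoplasmic reticulum list the PABPN IP median, 0.0337, is the lowest of the 3 fractions, and in the endosome and lysosome list the PABPC IP median, 0.0156, is.

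The median TPM ratio of the TMEM mRNAs lay toward PABPC relative to all protein-coding genes. These columns also chose the members, so the counts are read as description. The log2 TPM ratio, with 0.5 added to each TPM, was centred on its median over the 9607 protein-coding genes, which was -0.19 for PABPC IP over PABPN IP, 1.10 for PABPN IP over Input and 0.95 for PABPC IP over Input. The members' median was 0.27 for PABPC IP over PABPN IP and 0.076 without centring. A ratio above 0.5 was held by 50 members (37.6%, against 29.9% of protein-coding genes) and a ratio below -0.5 by 27 (20.3% against 31.1%). Without centring these counts were 36 (27.1% against 22.7%) and 32 (24.1% against 37.2%). At a threshold of 1 they were 14 above (10.5% against 12.3%) and 10 below (7.52% against 16.6%), so the larger share of members above did not hold at that threshold, while the share below was again smaller.

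The ratios of the 2 IPs over the Input share the Input and are given side by side only. For PABPC IP over Input the median was 0.27, with 28 members above 0.5 (21.1% against 9.02%) and 5 below -0.5 (3.76% against 17.4%). For PABPN IP over Input the median was -0.0013, with 31 members above (23.3% against 23.7%) and 15 below (11.3% against 20.6%). Without centring, 125 and 1 members were above and below with PABPC (94.0% and 0.752%, against 80.2% and 0.854%), and 126 and 0 with PABPN (94.7% and 0, against 84.1% and 0.583%), the median gene having a higher TPM in either IP than in the Input. Solute carriers had medians of -0.046 for PABPC IP over PABPN IP, 0.080 for PABPC IP over Input and 0.18 for PABPN IP over Input.

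**Figure D4:**
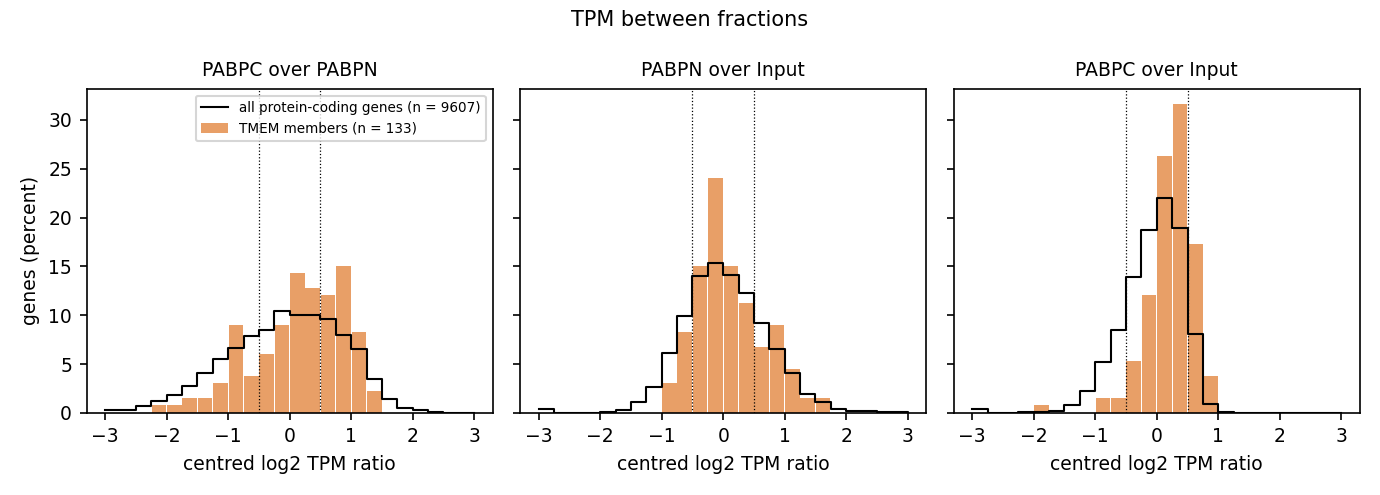
Percent of genes in each 0.25-wide bin of the centred log2 TPM ratio for the 3 pairs of fractions, with TMEM members as bars and all protein-coding genes as a black outline; dotted lines mark -0.5 and 0.5, and values beyond 3 in size are in the end bins. For PABPC IP over Input, 3.76% of the members lie below -0.5, against 17.4% of protein-coding genes.

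The members with the highest ratios of PABPC IP over PABPN IP were TMEM256 (1.36), TMEM160 (1.32), TMEM147 (1.28), TMEM14A (1.18) and TMEM54 (1.15). TMEM147 was also the most abundant member in the Input, with TPM of 140 in the Input, 189 in the PABPN IP and 402 in the PABPC IP. After it in the Input came TMEM106C (135), TMEM230 (125), TMEM109 (110) and TMEM183A (107), and all 5 had centred ratios above 0.5. The lowest ratios belonged to TMEM63A (-2.08), TMEM265 (-1.99), TMEM145 (-1.66), TMEM131L (-1.601) and TMEM131 (-1.48). Each of these had a PABPC TPM between 5.32 and 5.83, near the threshold, and genes further down were removed by it. TMEM63A, for example, had TPM of 5.15 in the Input, 28.4 in the PABPN IP and 5.48 in the PABPC IP. Mitochondrial members had a median ratio of 0.63, with 8 of 12 above 0.5 (beside 29.9% of protein-coding genes), and cilium transition zone members a median of -0.24. Between these lay the endosome and lysosome (0.24), Golgi and early secretory (0.22), endoplasmic reticulum (0.15) and nuclear envelope (-0.13) lists.

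TMEM proteins are short, and the TPM ratio of PABPC IP over PABPN IP tended to be lower at longer coding lengths. In the canonical transcripts of GENCODE release 44, found for all 133 members and 9601 of the protein-coding genes, the members' median coding length was 792 bases against 1320, their median transcript length 2420 against 3270, and their median exon number 6 against 9. The translated proteins had a median of 264 residues against 440. Hydrophobic stretches, with a Kyte-Doolittle mean of at least 1.6 over 19 residues, were found in 129 members (97.0%) against 30.2% of protein-coding genes, with medians of 3 and 0. Stretches of this kind were absent from 4 members, TMEM11, TMEM135, TMEM209 and TMEM263, named after their values were seen. The members lay on 22 chromosomes, with the largest numbers on chromosomes 1 (17) and 11 (16).

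Across the 133 members, coding length and the centred log2 TPM ratio of PABPC IP over PABPN IP had a Spearman correlation of -0.39, against -0.62 across the 9601 protein-coding genes. Genes were then split at 750 bases of coding length, a limit that the study also uses. This split was added after seeing the data. Below 750 bases, 60 members had a median ratio of 0.60 and 2098 protein-coding genes 0.76. At 750 bases or more, 73 members had 0.055 and 7503 protein-coding genes -0.20. Members under 750 bases made up 45.1% of the TMEM genes, and such genes 21.9% of protein-coding genes. The members' median was below that of protein-coding genes in the shorter class and above it in the longer class, and the part of coding length in the members' overall median was not tested.

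**Figure D5:**
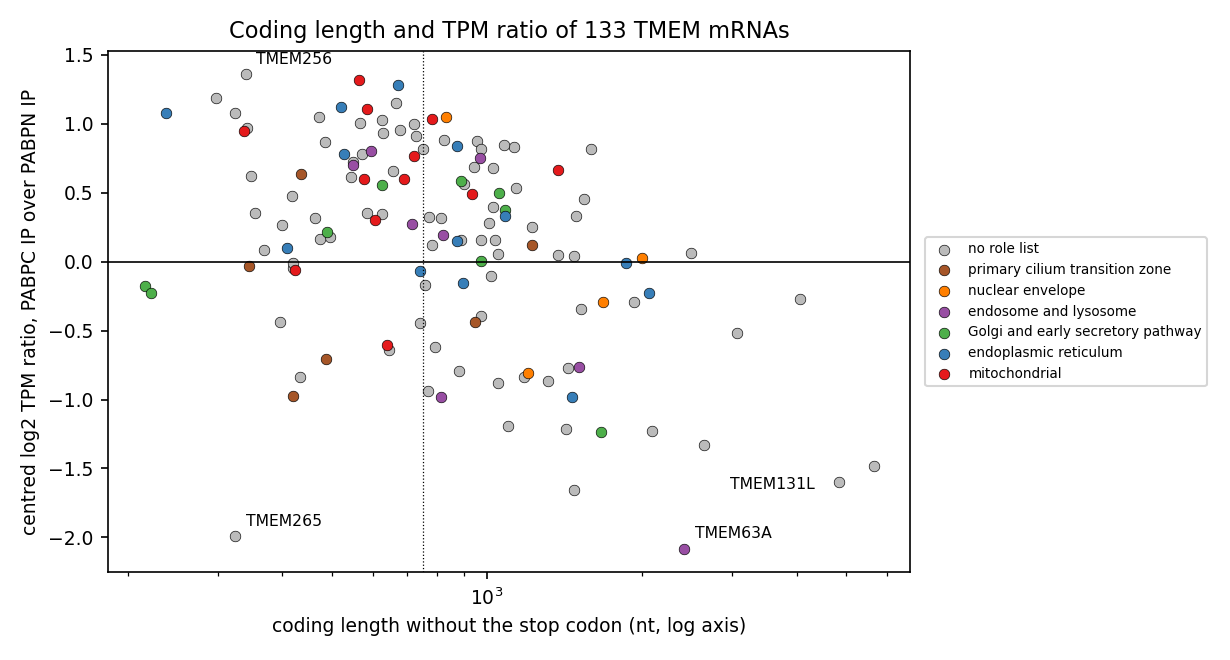
Each point is a member, with coding length in bases (log axis) against the centred log2 TPM ratio of PABPC IP over PABPN IP, coloured by role list; the dotted line marks 750 bases. Members left of the line have a median ratio of 0.60 and those right of it 0.055, and TMEM265 is a short member with a low ratio.

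EPKM is divided by transcript length and not by TPM, so its correlations with the 2 are not alike in construction and are given as description. Of 12 Spearman correlations computed per gene set, those between transcript length and EPKM across the members were 0.0091 in the Input, 0.011 in the PABPN IP and -0.036 in the PABPC IP, against -0.15, -0.0011 and -0.054 across protein-coding genes. Those between TPM and EPKM of the same fraction were 0.49, 0.29 and 0.53, and across protein-coding genes 0.53, 0.25 and 0.45. The share of C in the coding sequence, the base that APOBEC1 edits, had correlations of -0.19, -0.045 and 0.026 with EPKM across the members, against -0.12, -0.094 and 0.096 across protein-coding genes. All are across genes, which are not independent replicates, and each pair of columns shares its libraries. TMEM14C had 22.9% C in its coding sequence against a median of 27.8% for the members.

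Members that share a number and differ in letter formed 15 sets with 31 members. Both members were higher with PABPC in the TMEM120 set, at 0.0646 and 0.155, and none was in the TMEM9, TMEM50 and TMEM185 sets. In each of the other 11 sets, 1 member was higher with PABPC. These counts stand beside 56.4% of all protein-coding genes higher with PABPC. The share of such splits among pairs of unrelated genes was not computed, so the counts are a description. TMEM39A had 0 with PABPN and 0.0234 with PABPC, while its paralogue TMEM39B had 0.167 and 0. TMEM167A was above 0 in every fraction and TMEM167B in none. In TPM, TMEM131 and TMEM131L lay 0.12 apart in the centred log2 ratio of PABPC IP over PABPN IP, and TMEM63A and TMEM63B 2.15 apart, with a median range of 0.77 over the 15 sets.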

How the data were processed

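Ribo-STAMP libraries of 17 samples were made from ribosomal-RNA-depleted RNA with a stranded kit. Alignment to hg38 used STAR, and the authors counted reads with featureCounts 2.0.2 on a custom annotation without overlapping or readthrough regions. The editing signal was deposited as normalized EPKM, which the authors computed from C-to-U edits and from which they subtracted the control. How replicates were combined, and how differences below 0 were handled, is not given in the sources used here. The TPM columns deposited by the authors sum exonic and intronic TPM and are averages per fraction. Per-sample columns left unused numbered 0, and depth per sample is unknown from these values.

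Genes were matched to GENCODE release 44 by identifier. Differences, medians and counts were computed with Python 3.11.15, NumPy 2.4.6, pandas 2.3.3 and SciPy 1.17.1, sequences were compared with Biopython 1.88 and BLAST 2.17.0, plots were drawn with matplotlib 3.10.9, and the counting rules were tested on simulated data. Pseudocounts were 0.01 for EPKM and 0.5 for TPM. Named were TMEM14C and its paralogues, the 8 members with the largest EPKM difference each way, the 5 highest in Input EPKM, the 5 highest in Input TPM, the 5 highest and the 5 lowest in the TPM ratio of PABPC IP over PABPN IP, members of the role lists (mitochondrial, endoplasmic reticulum, Golgi and early secretory pathway, endosome and lysosome, nuclear envelope, cilium transition zone) and paralogue sets. Alternatives changed the TPM filter, pseudocounts, centring, thresholds and summaries. The members and lists were chosen with earlier results of these data known.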

Additional observations from a re-analysis of the deposited data

Results flagged for a closer look

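Editing was also listed for TMEM genes outside the TPM threshold, which entered only the alternatives with a lower or no TPM filter. Of the 41 such genes, 35 (85.4%) had an EPKM above 0, that is above the subtracted control, in at least 1 fraction. The share was 86.2% of the 3866 protein-coding genes outside the threshold and 97.9% of those inside it. The highest value among the 41 was that of TMEM91, 0.151 with PABPN, against 0.00553 with PABPC and 0.0164 in the Input, with a TPM of 7.49 in the PABPN IP and 1.17 in the PABPC IP. TMEM225B, just outside the threshold, had 0.111 in the PABPC IP, and TMEM42, for which no TPM was listed, had 0.0482. TMEM42 and TMEM225B were named after their values were seen.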

How the results depend on the processing

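No paired analysis was possible because the table holds 1 pooled value per gene and fraction; for the same reason leaving out replicates was not run. Of 58 alternatives, 36 left a value within its interval over genes or within 1.5 times. The difference of median EPKM between the IPs, 0.009997, was positive under all 8 alternatives run for it, and was 0.0222 at a TPM of at least 10, 0.0275 as a mean and 0.0187 as a mean without TMEM14C, the last chosen after seeing the data. At EPKM above 0.01, the shares of members were 63.9% in the Input, 66.2% with PABPN and 71.4% with PABPC (67.6%, 66.3% and 77.01% of protein-coding genes), so the Input lay below PABPN, the reverse of the members' order above 0. Above 0, the Input also lay below PABPN over every listed TMEM gene (68.4% against 70.1%). The 2 shares were 71.2% each at a TPM of at least 1, and 78.2% against 72.7% at a TPM of at least 10. With a pseudocount of 0.1, 14 members were at least 2-fold higher with PABPC and 2 with PABPN (9% and 3.71% of protein-coding genes).

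Centring mattered by its construction. Without it the median log2 TPM ratio was 0.076 for PABPC IP over PABPN IP, 1.10 for PABPN IP over Input, where the centred median of -0.0013 turned its sign, and 1.22 for PABPC IP over Input. Members above and below were then 126 and 0 for PABPN IP over Input (84.1% and 0.583% of protein-coding genes), and 125 and 1 for PABPC IP over Input (80.2% and 0.854%). At a threshold of 1 the numbers above and below were 14 and 10 for PABPC IP over PABPN IP (12.3% and 16.6% of protein-coding genes), 10 and 0 for PABPN IP over Input (7.97% and 4.61%), and 0 and 1 for PABPC IP over Input (0.0625% and 3.81%). For PABPC IP over PABPN IP, the larger share of members above at 0.5 was thus gone at 1. For PABPC IP over Input only 6 of 9607 protein-coding genes were above 1, too few to compare. Splitting by coding length, also chosen after seeing the data, gave medians of 0.60 under 750 bases and 0.055 at 750 or more. Depth per value is unknown, so the precision of single EPKM values near 0 cannot be given.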
